A study of Mus musculus with 8 samples.

Results

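Snap25, Syt1, Syp, Stx1a, Vamp2, Stmn2, Camk2a, Rbfox3 and Map2, genes of the synaptic vesicle and of the neuronal cell body and its processes, were followed in tumor cells sorted from breast cancer brain metastases (BCBM). They were taken from the deposited count table by gene symbol, and each of the 9 symbols matched 1 of the 31894 genes with an identifier. The tumor cells come from mammary tumors of PyMT mice, in which the polyoma middle T oncogene drives mammary carcinoma. They express a fusion of E-cadherin with the cyan protein mCFP, and a histone fused to the green protein Dendra2. Tumors were passed serially through the brain, grown as 1 organoid line and injected intracranially into adult FVB mice of wild type genotype. From each of 4 mice, numbered 57, 58, 67 and 70, E-cadHI cells (mCFP-positive) and E-cadLO cells (mCFP-negative) were sorted, and each gave 1 bulk mRNA library, so that both groups hold 4 libraries and share the PyMT, E-cad-mCFP and Dendra2 background. The sort kept live, single, Dendra2-positive cells with low tdTomato, a color of the host in one of the recipient strains used in the study.

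A synaptic vesicle fuses when the vesicle protein synaptobrevin (Vamp2) zips with syntaxin (Stx1a) and SNAP-25 (Snap25) of the target membrane into a SNARE complex, and synaptotagmin (Syt1) couples this step to calcium. Synaptophysin (Syp) is an abundant protein of the vesicle membrane. Camk2a encodes a subunit of the calcium-dependent kinase of excitatory synapses, Stmn2 a regulator of growing axonal microtubules, Map2 the microtubule protein of dendrites, and Rbfox3 the splicing factor known as NeuN. In most cells outside the nervous system other SNAREs serve constitutive traffic, and many neuronal genes are kept silent there by the repressor REST.

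Library totals ranged from 9102781 to 15769200 counts, and the floor of 3 counts corresponded to 0.190 to 0.330 CPM (counts scaled to a common library size). Levels below are CPM after TMM scaling, which corrects for library composition. Epithelial markers were present in all 8 libraries, with Epcam between 290 and 1344 CPM and Krt8 between 1922 and 4399 CPM. Cdh1, which encodes E-cadherin itself, lay between 93.5 and 132 CPM in E-cadHI and between 59.2 and 181 CPM in E-cadLO (log2 fold change -0.31 ± 0.23, adjusted p = 0.482, edgeR with the replicate block). Libraries stood apart in ways that touch the neuronal genes. The E-cadLO library of mouse 57 held 497 CPM of the collagen gene Col1a1, against 1.40 to 8.53 CPM in the other 7 libraries, and the E-cadHI library of mouse 57 had the fewest neuronal counts of all. The library pair of mouse 70 had the most myelin and astrocyte RNA. Results are therefore also given without each mouse.

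The 9 genes were higher in E-cadLO than in E-cadHI within nearly every mouse, but the 2 groups overlapped for each of them. Together they made up 45.5, 469, 122 and 302 CPM in the E-cadHI libraries of mice 57, 58, 67 and 70, and 116, 1067, 512 and 1021 CPM in the E-cadLO libraries of the same mice. In 8 of the 9 genes the E-cadLO library was above its E-cadHI partner in 4 of 4 mice, which held for 16.8% of the 13598 genes tested. The exception was Map2, in mouse 57. In 0 of the 9 genes did the lowest E-cadLO library lie above the highest E-cadHI library, a separation seen in 3.9% of all tested genes. With 4 mice, the exact two-sided sign-flip test of a within-mouse ratio cannot go below p = 0.13, and it gave that value for the 8 genes and 0.25 for Map2. In these bulk libraries, more neuronal cells and more neuronal RNA per cell cannot be told apart.

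**Figure D1:**
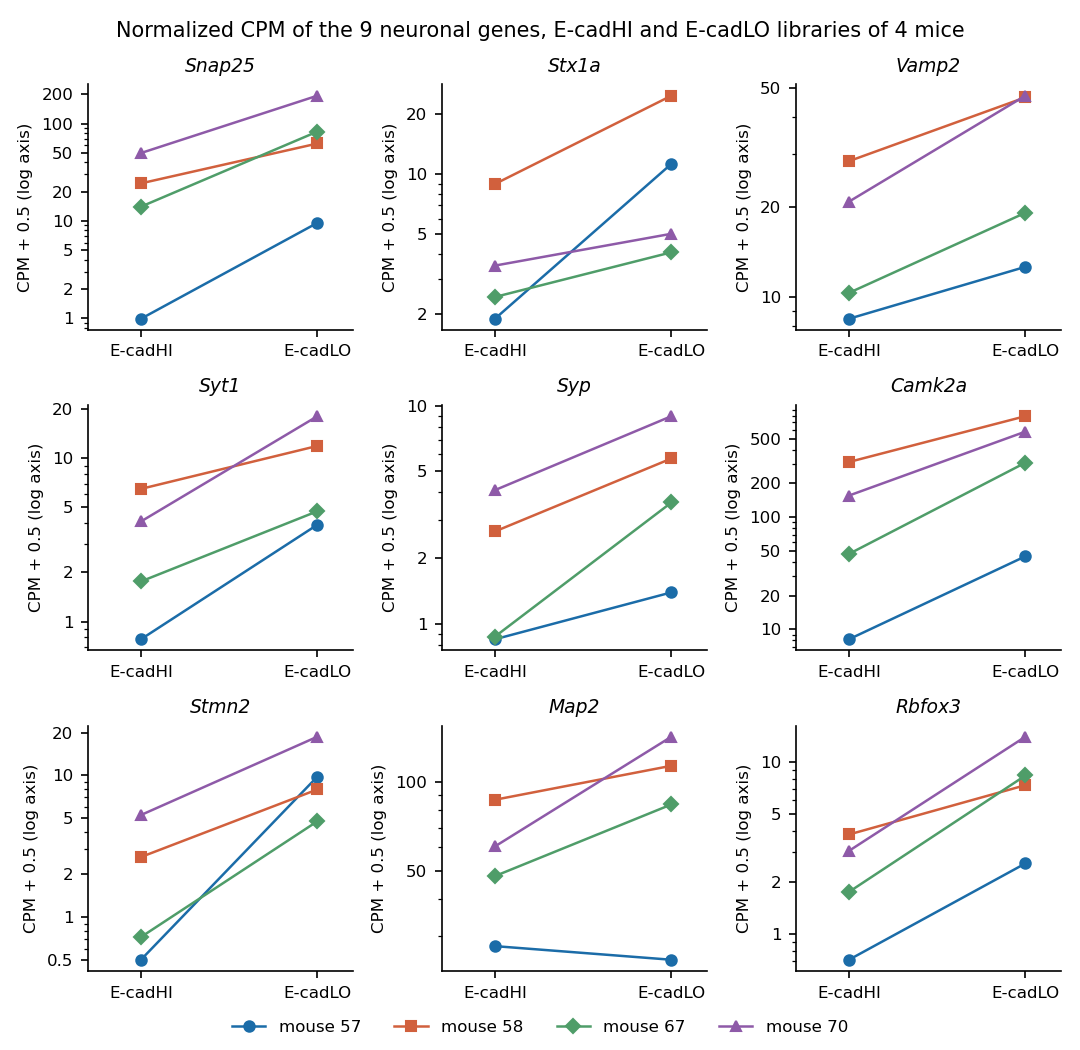
Normalized CPM plus 0.5 (log axis, scaled separately in each panel) of the 9 genes in the E-cadHI and E-cadLO libraries, with 1 line and symbol per mouse. All lines rise except that of Map2 in mouse 57, while for 7 of the 9 genes the E-cadHI library of mouse 58 lies above the E-cadLO library of mouse 57.

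Across all genes, the edgeR quasi-likelihood test without the mouse as a term called no gene, neither upward (0%) nor downward (0%), with 0.05 as the threshold on the adjusted p. None of the 9 genes was called in it, with adjusted p between 0.321 and 0.506, and only Rbfox3 had an unadjusted p under 0.05, a level reached upward by 8.16% of all tested genes. DESeq2 without the mouse also called 0 of the 9, with 2.48% of its tested genes called higher. The samples are paired by animal. Once the animal was entered as a replicate block, edgeR called 99 genes higher (0.728% of those tested) and 0 lower (0%; the 9 genes had 0 in that direction too), and 2 of the 9, Camk2a and Snap25, were among the 99. All 9 then had an unadjusted p under 0.05 and a higher level in E-cadLO, against 12.3% of all tested genes. DESeq2 with the replicate block called 7 of the 9 higher, with 6.77% of its tested genes called in that direction, and left out Syp (adjusted p = 0.0509) and Map2 (adjusted p = 0.152). The median log2 fold change of the 9 genes was 1.72 without and 2.02 with the block, and that of all tested genes was 0.06 and 0.03.

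The blocked calls changed when a mouse was left out. The fitted log2 fold changes stayed between 1.92 and 2.39 for Camk2a and between 1.96 and 2.71 for Snap25. Without mouse 57, edgeR with the replicate block called 4 of the 9 genes (Camk2a, Snap25, Vamp2 and Stmn2). That fit called 425 of its 13905 tested genes higher, against 99 with all mice. Without mouse 58 edgeR called Camk2a alone of the 9, with 63 of 13647 tested genes called higher. Without mouse 67 or mouse 70 it called 0 of the 9, with 0 and 2 genes called higher among all tested genes. Without mouse 67 and without mouse 70, which leaves 3 mice each time, the log2 fold change was 1.92 and 2.21 for Camk2a and 2.24 and 2.52 for Snap25, beside 2.12 and 2.32 with all 4. Without mouse 57 and without mouse 58 it was 1.96 and 2.39 for Camk2a and 1.96 and 2.71 for Snap25. The direction of each of the 9 genes stayed upward in all these fits.

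Snap25 (chromosome 2, 136713453 to 136782428, GRCm38), the membrane-anchored SNARE that gives the complex a pair of its helices, was one of the 2 genes called with the block. Its level was 0.488, 23.8, 13.5 and 49.3 CPM in the E-cadHI libraries of mice 57, 58, 67 and 70 (21.8 ± 20.7, SD, n = 4). In E-cadLO it was 9.06, 61.9, 82.3 and 193 CPM in the same order (86.6 ± 77.5, SD, n = 4). The library of mouse 70 was highest in both groups and that of mouse 57 lowest, and the E-cadLO library of mouse 57 lay below 3 of the 4 E-cadHI libraries. Within mice the level was 18.6-, 2.60-, 6.12- and 3.92-fold higher in E-cadLO, and the first of these, from 7 counts in E-cadHI, has a 95% counting interval of 8.75 to 47.2. The log2 fold change was 2.0 ± 1.08 (SE, adjusted p = 0.416, edgeR) without the block and 2.32 ± 0.38 (adjusted p = 0.046) with it.

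Stx1a (chromosome 5, 135023482 to 135051100), the syntaxin that pairs with Snap25 in the plasma membrane, did not follow Snap25 from mouse to mouse. It lay at 1.39, 8.45, 1.93 and 2.99 CPM in E-cadHI (3.69 ± 3.24, SD, n = 4) and at 10.8, 24.3, 3.57 and 4.54 CPM in E-cadLO (10.8 ± 9.56, SD, n = 4). Both libraries of mouse 58 were the highest of their group, and in E-cadLO mouse 57 came next, where Snap25 was lowest. The within-mouse folds were 7.73, 2.88, 1.85 and 1.52, and the blocked log2 fold change was 1.47 ± 0.47 (SE, adjusted p = 0.179, edgeR).

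Vamp2 (chromosome 11, 69088490 to 69092384), the vesicle SNARE, was detected with at least 114 counts in every library and had the narrowest ratios. It was 7.95, 27.9, 9.81 and 20.3 CPM in E-cadHI (16.5 ± 9.35, SD, n = 4) and 12.1, 45.9, 18.6 and 46.5 CPM in E-cadLO (30.8 ± 18.0, SD, n = 4). The mice kept almost the same order in both groups, and E-cadLO was 1.52-, 1.65-, 1.89- and 2.29-fold higher. The blocked log2 fold change of 0.86 ± 0.21 (SE) did not pass (adjusted p = 0.116, edgeR).

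Syt1 (chromosome 10, 108497650 to 109010982), the calcium sensor of fast release, and Syp (chromosome X, 7638471 to 7653256), the vesicle membrane protein, were scarce in E-cadHI. Syt1 was 0.279, 5.99, 1.26 and 3.60 CPM in E-cadHI and 3.42, 11.4, 4.24 and 17.6 CPM in E-cadLO. Syp was 0.348, 2.15, 0.372 and 3.60 CPM in E-cadHI and 0.892, 5.23, 3.10 and 8.46 CPM in E-cadLO. For both, the E-cadHI libraries of mice 57 and 67 rested on few counts, 4 and 17 for Syt1 and 5 and 5 for Syp. The within-mouse folds were 12.3, 1.90, 3.36 and 4.89 for Syt1 and 2.56, 2.43, 8.33 and 2.35 for Syp. In mouse 57 their 95% counting intervals were 4.48 to 46.9 and 0.839 to 9.27, so that for Syp in that mouse a difference was not detectable at this depth. With the block the log2 fold changes were 2.02 ± 0.50 (SE, adjusted p = 0.124, edgeR) and 1.67 ± 0.54 (adjusted p = 0.181). The 3′ part of Syp overlaps an exon of the antisense gene Gm14703, and 15.8% of the 65-base windows of Syp transcripts occur in it on the opposite strand. Gm14703 itself had 0 to 3 counts per library. Whether counting used strand is not given in the sources used here.

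Camk2a (chromosome 18, 60925618 to 60988152), the excitatory synapse kinase, gave the smallest adjusted p with the block and was the most abundant of the 9 by CPM in 6 of 8 libraries, with Map2 above it in E-cadHI of mice 57 and 67. It stood at 7.67, 309, 46.5 and 155 CPM in E-cadHI (129 ± 135, SD, n = 4). In E-cadLO it stood at 44.3, 792, 305 and 577 CPM (429 ± 325, SD, n = 4). The mice held the order 58, 70, 67, 57 in both groups. The highest E-cadHI library was 40.3-fold above the lowest, while E-cadLO exceeded E-cadHI within mice by 5.78-, 2.56-, 6.56- and 3.73-fold. The log2 fold change was 1.73 ± 1.03 (SE, adjusted p = 0.45, edgeR) without the block and 2.12 ± 0.26 (adjusted p = 0.0239) with it.

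Stmn2 (chromosome 3, 8509360 to 8561606), the axonal stathmin, had the largest fitted change of the 9 and some of the smallest counts. E-cadHI gave 0, 2.15, 0.223 and 4.74 CPM, from 0, 28, 3 and 54 counts, and E-cadLO gave 9.29, 7.44, 4.24 and 18.2 CPM. In mouse 57 it was at least 44.4-fold higher in E-cadLO, set against the floor of 3 counts in the E-cadHI library. In mouse 67 the ratio was 19 with a 95% counting interval of 6.22 to 94.7, and in mice 58 and 70 it was 3.46 and 3.85. The blocked log2 fold change was 3.25 ± 0.93 (SE, adjusted p = 0.156, edgeR) and fell to 2.36 without mouse 57, where it passed the threshold (adjusted p = 0.0411).

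Map2 (chromosome 1, 66175273 to 66442583), the dendritic microtubule protein, had at least 329 counts in every library and the smallest change. It was 27.2, 86.5, 47.4 and 59.9 CPM in E-cadHI (55.2 ± 24.8, SD, n = 4) and 24.4, 113, 83.4 and 142 CPM in E-cadLO (90.7 ± 50.2, SD, n = 4). The E-cadLO library was 0.899-fold its partner in mouse 57 and 1.30-, 1.76- and 2.37-fold in mice 58, 67 and 70. The blocked log2 fold change was 0.58 ± 0.24 (SE, adjusted p = 0.242, edgeR).

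Rbfox3 (chromosome 11, 118489762 to 118911597), whose product marks the nuclei of mature neurons, was low in both groups. It was 0.209, 3.30, 1.26 and 2.55 CPM in E-cadHI (1.83 ± 1.37, SD, n = 4) and 2.08, 6.86, 7.88 and 13.6 CPM in E-cadLO (7.61 ± 4.74, SD, n = 4). E-cadLO of mouse 57 was again the lowest of its group, below E-cadHI of mice 58 and 70. The ratio in mouse 57 was 9.95 with a 95% counting interval of 3.07 to 51.1 (3 counts in E-cadHI), and the other mice gave 2.08, 6.23 and 5.35. The blocked log2 fold change was 2.26 ± 0.50 (SE, adjusted p = 0.0964, edgeR). Intervals cover counting error only.

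**Figure D2:**
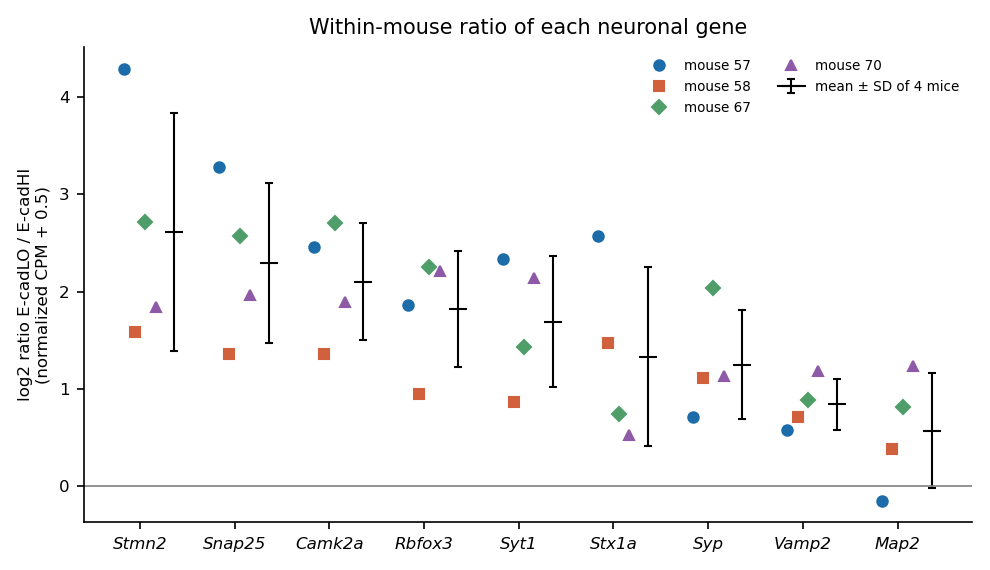
log2 ratio of E-cadLO to E-cadHI (normalized CPM plus 0.5) of each gene in each mouse (symbols), with the mean and SD of the 4 mice in black. Stmn2 averages 2.61 and Map2 0.57, and the symbol of mouse 57 for Map2, at -0.15, is the only one below 0.

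The genes thus differed in the size of their ratio more than in its direction. Within each mouse the ratio of Map2 was below that of Camk2a, by 2.61, 0.98, 1.89 and 0.66 log2 units in mice 57, 58, 67 and 70. Vamp2 lay below Camk2a by 1.26 ± 0.67 log2 units (mean ± SD, n = 4) and below Snap25 by 1.45 ± 0.95, in 4 of 4 mice each. These differences between genes, 6 pairs in all, cannot go below p = 0.13 in an exact sign-flip test, and 4 pairs gave that value. Snap25 and Camk2a differed by 0.19 ± 0.43 log2 units, in varying direction. Relative to Camk2a, the level of Map2 went from 3.55 to 0.552 in mouse 57, from 0.280 to 0.143 in mouse 58, from 1.02 to 0.274 in mouse 67 and from 0.387 to 0.246 in mouse 70, E-cadHI first.

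Levels can be compared between genes only per length, so CPM were divided by the kilobases of merged exons. These pool all annotated transcripts, 24 for Map2 and 4 for Stmn2, and which of them were present was not tested. The order on the resulting scale is thus approximate. On this scale Camk2a was highest in E-cadLO, with a median of 59.0 CPM per kilobase (5.93 to 106). Snap25 (10.6), Vamp2 (8.47), Map2 (5.96) and Stx1a (2.87) followed, and Stmn2 (1.49), Rbfox3 (1.27), Syt1 (0.938) and Syp (0.799) came last. Camk2a exceeded Snap25 in 8 of 8 libraries. Stx1a exceeded Stmn2 in 7 of 8. The other neighbours were less separated: Snap25 exceeded Vamp2 in 3 of 8 libraries, Vamp2 exceeded Map2 in 6 and Map2 exceeded Stx1a in 6. Stmn2 exceeded Rbfox3 in 4 of 8, Rbfox3 exceeded Syt1 in 5 and Syt1 exceeded Syp in 5. In the E-cadHI library of mouse 57 Vamp2 (2.09) and Map2 (1.65) were above Camk2a (1.03) and Snap25 (0.0718).

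The makeup of the neuronal RNA also varied by mouse. Camk2a counts were 13.0 and 12.8 times those of Snap25 in the E-cadHI and E-cadLO libraries of mouse 58, 3.45 and 3.70 times in mouse 67, and 3.14 and 2.99 times in mouse 70. In these 3 mice the ratio thus moved little between the groups and differed between mice. Mouse 57 stood apart, with 15.7 in E-cadHI, from 7 Snap25 counts, and 4.89 in E-cadLO. Its E-cadLO library held 1.02 Stmn2 and 1.19 Stx1a counts per Snap25 count, against 0.0515 to 0.120 and 0.0235 to 0.393 in the other E-cadLO libraries. Cplx1 and Nefl, chosen after their values were seen, were each 0.0082 per Snap25 count there, from 1 count each, against 0.224 to 0.586 and 0.294 to 0.632 in the other E-cadLO libraries.

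Each vesicle SNARE has close relatives, many of which cells outside the brain use for constitutive traffic. For those named here the differences were mostly small. The paralogs of Snap25 include Snap23, which was 75.1 to 103 CPM in E-cadHI and 57.0 to 111 CPM in E-cadLO (blocked log2 fold change 0.01 ± 0.16, SE, adjusted p = 0.985, edgeR). Snap47 changed by 0.15 (adjusted p = 0.636) and Snap29 by -0.38 (adjusted p = 0.5). For Stx1a, the epithelial syntaxin Stx3 was 46.7 to 53.2 and 37.9 to 58.5 CPM (0.03 ± 0.18, adjusted p = 0.935), and Stx2 and Stx4a gave 0.20 each (adjusted p = 0.758 and 0.681). For Vamp2, Vamp3 gave -0.23 ± 0.18 (adjusted p = 0.487) and Vamp8, a SNARE of secretory epithelia, -0.59 ± 0.22 (adjusted p = 0.218). Vamp1, counted with the release machinery below, gave 0.35 ± 0.43 (adjusted p = 0.667). None of the paralogs named here was called in either direction by edgeR or DESeq2, with or without the block, and Vamp8 alone among them had an unadjusted p under 0.05 in the blocked edgeR fit.

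Since the relatives are alike in sequence, the coding stretch of 65 bases, the length of a read, with the fewest differences was found for 4 pairs in the longest annotated coding sequence of each gene (GENCODE M21, GRCm38). The stretches are shown to let the likeness be seen that a read must resolve, and capitals mark the bases that differ. Snap25 and Snap23 differed in 9 of the 65 bases at their closest, across exons 4 and 5 of both genes (chr2:136763607-136770106 and chr2:120585590-120586208, plus strand), and their longest identical run was 13 bases.
Snap25: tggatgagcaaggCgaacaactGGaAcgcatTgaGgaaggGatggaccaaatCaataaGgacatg
Snap23: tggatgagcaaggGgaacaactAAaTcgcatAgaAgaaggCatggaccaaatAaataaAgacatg
Stx1a and Stx3 also differed in 9 bases, across exons 8 and 9 of both (chr5:135045677-135049000, plus strand, and chr19:11783130-11785447, minus strand).
Stx1a: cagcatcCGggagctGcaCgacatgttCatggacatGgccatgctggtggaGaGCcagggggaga
Stx3: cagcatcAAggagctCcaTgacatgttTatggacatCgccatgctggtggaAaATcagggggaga
Vamp2 and Vamp3 differed in 7 bases within exon 3 of both (chr11:69089788-69089852, plus strand, and chr4:151050954-151051018, minus strand), with a longest identical run of 17 bases.
Vamp2: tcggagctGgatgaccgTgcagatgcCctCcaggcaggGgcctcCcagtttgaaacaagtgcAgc
Vamp3: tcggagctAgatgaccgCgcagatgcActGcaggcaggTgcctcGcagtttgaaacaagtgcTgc
Vamp2 and Vamp1 were the closest of the pairs shown, with 5 differing bases across exons 2 and 3 of both (chr11:69089218-69089786 and chr6:125218692-125218966, plus strand) and a longest identical run of 18 bases.
Vamp2: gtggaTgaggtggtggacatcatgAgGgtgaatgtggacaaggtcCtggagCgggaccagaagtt
Vamp1: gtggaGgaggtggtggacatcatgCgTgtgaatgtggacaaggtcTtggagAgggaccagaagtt
In full transcripts, 0% of the 65-base windows of Snap25, Stx1a, Vamp2, Syt1, Camk2a and Rbfox3 occurred in any other annotated gene, and the shares were 0.482% for Stmn2 and 0.0176% for Map2.

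Paralogs of the other genes held both broadly expressed and neuronal members. Among the relatives of Syp, the broadly expressed Sypl was 94.5 to 116 CPM in E-cadHI and 92.1 to 115 CPM in E-cadLO (0.01 ± 0.14, SE, adjusted p = 0.973, edgeR with the block), and Syngr2 gave -0.55 (adjusted p = 0.201) and Syngr1 -0.16 (adjusted p = 0.904). Synpr, a vesicle protein of some neurons, was under 1 CPM in all E-cadHI libraries and 0.223, 4.77, 5.72 and 5.94 CPM in E-cadLO (2.04 ± 0.94, adjusted p = 0.272). For Camk2a, the kinases Camk2d and Camk2g of most tissues gave 0.39 (adjusted p = 0.254) and 0.47 (adjusted p = 0.326), and neuronal Camk2b 1.61 (adjusted p = 0.145). Stmn1, of dividing cells, gave -0.18 (adjusted p = 0.696), while the neuronal stathmins Stmn3 and Stmn4 gave 2.08 (adjusted p = 0.0809) and 2.23 (adjusted p = 0.202).

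Rbfox2, a broadly expressed splicing factor, gave 0.21 (adjusted p = 0.641), and Rbfox1 2.57 (adjusted p = 0.153). Among other synaptotagmins, Syt11 gave 1.92 (adjusted p = 0.0851), Syt5 1.94 (adjusted p = 0.201) and Syt7 0.89 (adjusted p = 0.43), and Syt2 was too low to be tested. Both relatives of Map2 were called higher with the block: Mapt, the axonal tau, by 2.16 ± 0.31 and Map4, expressed in most cells, by 1.42 ± 0.20 (adjusted p = 0.033 each). Map4 was 38.8, 93.6, 54.7 and 131 CPM in E-cadHI and 160, 193, 119 and 371 CPM in E-cadLO, so here the broadly expressed relative changed and Map2 did not pass.

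**Figure D3:**
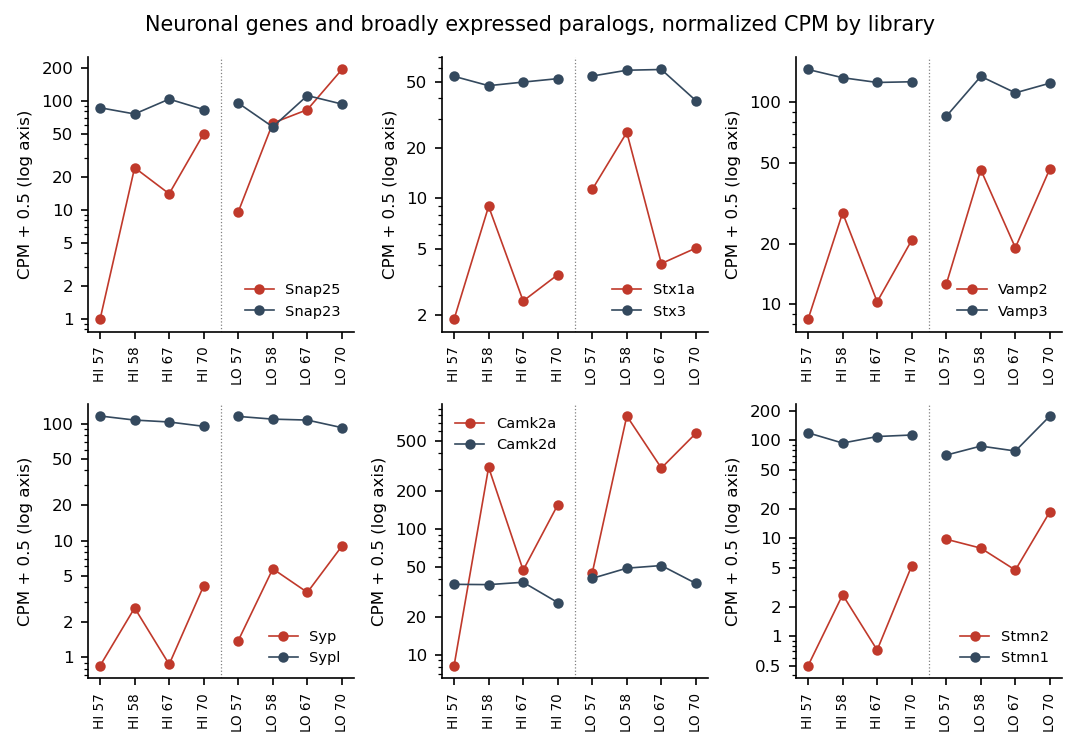
Normalized CPM plus 0.5 (log axis, scaled separately in each panel) of 6 of the genes (red) and a broadly expressed paralog (dark) in the 8 libraries, labelled by group and mouse; lines join libraries of a group only to guide the eye. Snap23 stays between 57.0 and 111 CPM while Snap25 spans 0.488 to 193 CPM, and Camk2a lies below Camk2d only in the E-cadHI library of mouse 57.

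Other genes of the release machinery mostly had fold changes above 0. Of 44 listed genes 37 passed the filter on low counts. Of these, 34 had a fold change above 0 without the block, against 7489 of all 13598 tested genes. In 4 of 4 mice 19 were higher in E-cadLO, against 16.8% of all tested genes. The median blocked log2 fold change of the 37 was 1.65. DESeq2 with the block called 16 higher and 0 lower, with 6.77% of its tested genes called higher. EdgeR with the block called 1 higher and 0 lower, with 0.728% of all tested genes called higher and 0% lower. The called gene was Rph3a, an effector of the vesicle GTPase Rab3, at 0.139, 12.8, 2.53 and 21.2 CPM in E-cadHI and 1.86, 37.7, 12.7 and 69.7 CPM in E-cadLO (2.05 ± 0.32, SE, adjusted p = 0.0427). Cplx1, which holds the SNARE complex before release, gave 1.91 (adjusted p = 0.063). At an unadjusted p under 0.05, 21 of the 37 were higher and 3 were lower with the block, against 12.3% and 7.33% of all tested genes. The 3 lower genes, named after their values were seen, were the vesicle protein Sv2b (29.5 to 45.4 CPM in E-cadHI and 5.72 to 28.4 CPM in E-cadLO, adjusted p = 0.252), the priming factor Unc13b (18.5 to 19.9 CPM and 6.54 to 16.2 CPM, adjusted p = 0.229) and Cadps2 of dense-core vesicles (13.0 to 27.3 CPM and 5.87 to 15.6 CPM, adjusted p = 0.231).

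The neuronal cytoskeleton and RNA-binding list had 25 of 33 genes tested, all 25 with a fold change above 0 in both fits. Of all 13598 tested genes, 7489 had one without the block and 7098 with it. In 4 of 4 mice 16 of the 25 were higher, against 16.8% of all tested genes. The median blocked log2 fold change of the list was 2.02. Mapt (above) and Eno2, the neuronal enolase (2.33 ± 0.37, SE, adjusted p = 0.0427, edgeR), were called with the block, with 0.728% of all tested genes called higher. Celf4, an RNA-binding protein, gave 1.36 (adjusted p = 0.0762) and Map1a, a microtubule protein, 2.24 (adjusted p = 0.0796). On the CaM kinase and postsynaptic list, 17 of 18 genes were tested and the median was 1.61. Of the 17, 11 were higher in 4 of 4 mice, against 16.8% of all tested genes. EdgeR called 0 of the 17 with or without the block. With it 10 had an unadjusted p under 0.05, all higher, against 12.3% of all tested genes. DESeq2 called 1 higher without and 8 with the block, against 2.48% and 6.77% of its tested genes. Dlgap1 (1.85, adjusted p = 0.0715) and Dlg2 (2.01, adjusted p = 0.123) are scaffolds of the postsynaptic density, and Camk2n1, an inhibitor of the kinase, gave 1.52 (adjusted p = 0.124).

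The neuroendocrine granule list, of genes for dense-core granules and peptide processing, had 10 of 16 genes tested and a median of 2.05. Of the 10, 6 were higher in 4 of 4 mice, against 16.8% of all tested genes. Pcsk1n, an inhibitor of a prohormone convertase, was the only 1 called with the block (2.26 ± 0.27, SE, adjusted p = 0.0239, edgeR), with 0.728% of all tested genes called higher. Scg5 gave 1.89 (adjusted p = 0.0642), Scg3 2.01 (adjusted p = 0.0851) and Ptprn 2.09 (adjusted p = 0.129). These lists hold only the genes that passed the filter, so their counts are descriptions.

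The general SNARE machinery gave the contrast. All 23 genes were tested, and 13 had a fold change above 0 without the block, against 7489 of all 13598 tested genes. In 4 of 4 mice 0 were higher and 4 were lower in E-cadLO, against 16.8% and 14.2% of all tested genes. The median blocked log2 fold change of the 23 was 0.01. Their summed level was 2609 to 3129 CPM in E-cadHI and 2369 to 2623 CPM in E-cadLO. None of the 23 was called by edgeR or by DESeq2, with or without the block, and at an unadjusted p under 0.05 edgeR had 0 higher and 3 lower in either fit. Of all tested genes, 12.3% were higher and 7.33% lower at that level with the block. Without it, 8.16% were higher and 790 of 13598 lower. Vamp7 (-0.41, adjusted p = 0.205, edgeR with the block) and Stxbp2 (-0.34, adjusted p = 0.309), of membrane traffic in epithelia, and Syngr2 and Vamp8 (above) had the smallest p.

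Rest, the repressor of neuronal genes outside the nervous system, was present in every library, at 64.5, 51.3, 58.6 and 43.4 CPM in E-cadHI and 78.2, 71.5, 72.5 and 44.7 CPM in E-cadLO. It was higher in E-cadLO in 4 of 4 mice by a small margin that did not pass (0.28 ± 0.16, SE, adjusted p = 0.349, edgeR with the block). Its corepressors Hdac1 (-0.26, adjusted p = 0.356), Rcor1 (-0.30, adjusted p = 0.401) and Sin3a (-0.30, adjusted p = 0.409) were not called, nor was any of the 8 genes of this list in the 4 fits of edgeR and DESeq2, and 0 had an unadjusted p under 0.05 in edgeR. The letters TTCAGCACC and GGACAGCGC, the left and right parts of the element that REST binds, were looked for on both strands of the RefSeq promoters (GRCm38.p6, 32851 promoters), of which 6 belong to Map2, Rbfox3, Stx1a, Syp and Syt1. They were in 0.371% and 0.405% of all promoters and in 0 of these 6, so no promoter is shown. Only exact letters within promoters were searched, and matches are rare at these shares. The 0 among 6 therefore cannot tell whether these genes have REST elements. Promoters of the other 4 genes, Camk2a and Snap25 among them, were not searched here.

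**Figure D4:**
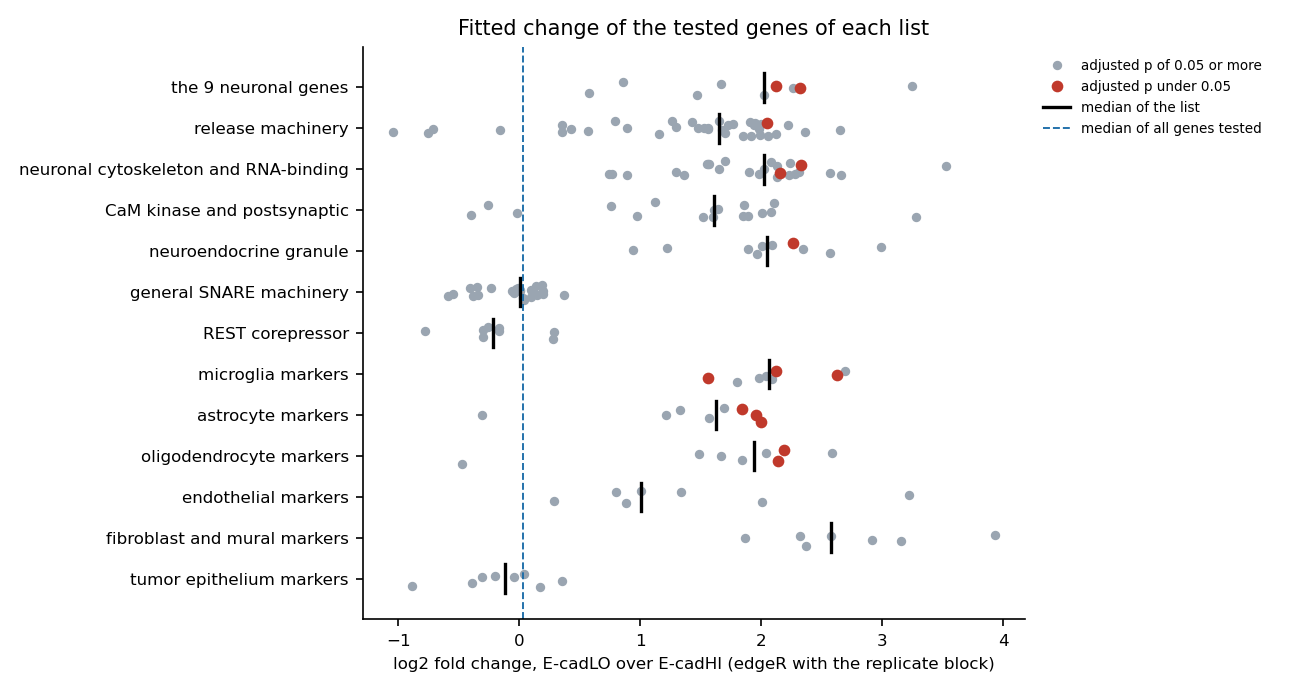
Blocked log2 fold change of every tested gene of each list (points, red where the adjusted p is under 0.05), with the list median (black bar) and the median of all tested genes (dashed line, 0.03). The 4 neuronal lists below the 9 genes center between 1.61 and 2.05, and the general SNARE machinery and the tumor epithelium markers near 0.

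Most markers of host brain cells were higher in E-cadLO too. Among all tested genes, 16.8% were higher in E-cadLO in 4 of 4 mice and edgeR with the block called 0.728% higher. All 8 microglia markers were higher in 4 of 4 mice, and 3, among them Cx3cr1 and P2ry12, were called with the block. The microglia sum was 29.9 to 147 CPM in E-cadHI and 102 to 534 CPM in E-cadLO. Of 8 astrocyte markers, 5 were higher in 4 of 4 mice and 3 were called (Gfap, Slc1a3 and S100b), and the sum was 1146 to 3557 CPM against 723 to 9881 CPM. In E-cadHI most of that sum was Aldoc, a glycolytic enzyme, which had a blocked log2 fold change of -0.31 (adjusted p = 0.804, edgeR) and went from 1005 to 124 CPM in mouse 57, where the sum of the 9 neuronal genes went from 45.5 to 116 CPM. Of 8 oligodendrocyte markers, 5 were higher in 4 of 4 mice, Mbp and Mobp were called, and the sum was 554 to 8594 CPM against 1313 to 34385 CPM. Cnp, of the myelin sheath, gave -0.47 (adjusted p = 0.576) and was lower in E-cadLO in 3 of 4 mice. No microglia or astrocyte marker was at 0 in any library, and of the oligodendrocyte markers Olig2 was at 0 in both libraries of mouse 57. Their blocked median log2 fold changes were 2.06, 1.63 and 1.94, beside 2.02 for the 9 neuronal genes.

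Of 8 endothelial markers 7 were tested and 0 were called by edgeR with the block. There, 1, Tek, was higher at an unadjusted p under 0.05, against 12.3% of all tested genes. DESeq2 with the block called 1, with 6.77% of its tested genes called higher. The endothelial sums were 42.0 to 77.1 CPM in E-cadHI and 60.2 to 106 CPM in E-cadLO, and Cldn5, Kdr and Slco1a4 were at 0 in 1 or more libraries. Fibroblast and mural markers summed to 1200 CPM in the E-cadLO library of mouse 57 and to 9.34 to 190 CPM in the other 7 libraries, and Pdgfrb was at 0 in E-cadHI of mouse 57. The order of mice was partly shared between cell types. Both libraries of mouse 70 had the highest glial sums of their group, and mouse 70 was also highest in 7 of the 9 neuronal genes in E-cadLO and in 3 of the 9 in E-cadHI. Mouse 58 was highest in the others, which were Camk2a and Stx1a in E-cadLO and 6 genes in E-cadHI. The part of host cells in the neuronal result was not tested. Tumor epithelium markers had a median blocked log2 fold change of -0.12, and 0 of 8 were called by edgeR or DESeq2 in the 4 fits. At an unadjusted p under 0.05, edgeR with the block had 1, Epcam, lower, against 7.33% of all tested genes.

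**Figure D5:**
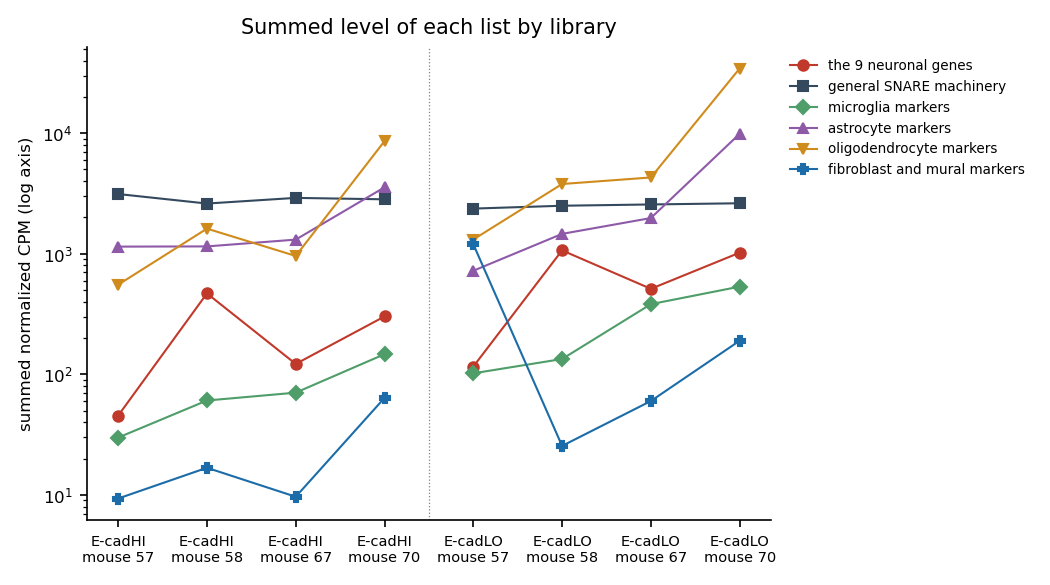
Summed normalized CPM (log axis) of the 9 neuronal genes, the general SNARE machinery and 4 marker lists in each library; lines join libraries of a group only to guide the eye. The oligodendrocyte sum peaks in mouse 70, at 8594 and 34385 CPM, and the neuronal sum in mouse 58, where Camk2a makes up 65.8% and 74.2% of it; without Camk2a the E-cadLO sum is 276 CPM in mouse 58 and 444 CPM in mouse 70, and the E-cadHI sums are 160 and 147 CPM.

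The 8 genes outside the set whose log2 levels over the 8 libraries were most like the mean standardized profile of the 9 were Clip3, Hpca, Dmtn, Cbx6, Map1a, Golga7b, Ddn and Rab3c, with Pearson r from 0.973 to 0.982. Hpca is a neuronal calcium sensor, Ddn a postsynaptic protein and Rab3c a vesicle GTPase. Hpca went from 0.0697, 8.68, 1.49 and 11.4 CPM in E-cadHI to 4.76, 22.0, 8.75 and 48.6 CPM in E-cadLO. The 8 points come from 4 mice and share their scaling, so these values only describe likeness. Within the set, Syt1 (0.985) and Camk2a (0.972) were closest to the mean profile, which includes them, and Stx1a (0.649) was farthest.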

How the data were processed

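Sorted E-cadHI and E-cadLO cells of 4 mice were sequenced as 8 TruSeq mRNA libraries with single reads. The authors mapped reads with HISAT2 2.1.0 to GRCm38 and deposited whole-number counts per gene without normalization. The paper names Icount and the submitters' processing notes name HTSeq for counting, and the use of strand and of reads with several matches is not given in the sources used here. The 365 entries without an identifier (at most 0.0954% of counts) were left out. From the counts, edgeR 4.0.16 (R 4.3.3) was run with TMM scaling, filterByExpr and the quasi-likelihood test. All 8 libraries entered the fit, and p-values of the 13598 genes were adjusted by Benjamini-Hochberg, threshold 0.05. The mouse is the replicate block of a second fit, since the labels give both populations of an animal its number. Deviations of a mouse's libraries correlated at 0.275 to 0.698, and those of different mice at no more than 0.153. DESeq2 1.42.0 was run with and without the block. Within-mouse log2 ratios use CPM plus 0.5. The steps were tested on simulated data.

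Named genes are the 9 genes, their paralogs, Rest, at most 4 genes of each further list by the smallest blocked p, and the 8 genes most like the 9. The genes and lists were chosen with earlier results of these data known. Exon lengths and transcripts come from GENCODE M21. Python 3.11, pandas 2.3.3, scipy 1.17.1 and matplotlib 3.10.9 were used. No protein sequences were used here, and some genes that this rule names are not reported here.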

Additional observations from a re-analysis of the deposited data

How the results depend on the processing

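Without the replicate block, 0 of the 9 genes were called under every alternative tried: DESeq2, DESeq2's size factors in edgeR, no filter on low counts, at least 10 counts in every library (only Map2, Vamp2, Camk2a and Stx1a left to test), and each mouse left out. With the replicate block, 2 were called by edgeR and 7 by DESeq2. Leaving out each mouse with the block gave 0 to 4, with 0 to 425 genes called higher among all tested. None was called lower under any alternative. The median log2 fold change was 1.69 to 2.05 in the fits with all mice that tested all 9 genes. With at least 10 counts in every library it was 1.25, over the 4 genes left. It was 1.58 to 2.16 without each mouse, and 1.70 to 2.39 without each mouse with the block, the highest without mouse 58. All 121 alternative values of single genes kept the upward direction, and 14 passed the threshold, all with the block. Snap25, called with the block, missed without mouse 58, 67 or 70 (adjusted p = 0.0516, 0.432 and 0.199, edgeR), with log2 fold changes of 2.71, 2.24 and 2.52 beside 2.32 with all mice. Other pseudocounts (0.1 and 2) or DESeq2's size factors moved no mean within-mouse ratio by more than 1 SD between mice in 27 alternatives. That SD was 1.22 log2 units for Stmn2, and ratios of scarce genes did depend on the pseudocount. With 0.1 and 2 the mean was 3.49 and 1.69 for Stmn2, beside 2.61, and 1.59 and 0.78 for Syp, beside 1.25. For Map2 it was 0.57 and 0.56, beside 0.57. The precision of Snap25, Stmn2, Syt1, Syp and Rbfox3 is limited by single-digit counts in E-cadHI of mouse 57, and p-values measure the spread between 4 mice that received the same organoid line.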

Other observations

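The E-cadLO library of mouse 57 held genes of the neuronal and neuroendocrine lists that the other libraries held at lower levels. These genes were chosen after their values were seen, from the lists above, because that library was the highest of the 8. It was also the highest in fibroblast and mural markers, with Col1a1 at 497 CPM, Pdgfrb at 147 CPM and Dcn at 33.7 CPM, against at most 8.53, 5.65 and 9.13 CPM elsewhere, and the part of these cells in the values below was not tested. Dpysl3, which guides growing axons, was 212 CPM there and 0.139 to 8.95 CPM elsewhere. Dclk1, a microtubule-binding kinase, was 141 CPM there and 6.48 to 40.6 CPM elsewhere, and Map1b, a microtubule protein of growing axons, was 296 CPM against 98.2 to 256 CPM. The granule proteins Scg2 and Chga were 15.6 and 9.06 CPM, against 0.139 to 5.17 CPM and 0 to 7.48 CPM.

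In the same library other neuronal genes, also chosen after their values were seen, were at or under the floor. Sh3gl2, an endocytic protein of the synapse, was at 0 there and 7.21 to 31.0 CPM in the other E-cadLO libraries, and the neurofilament relative Ina was at 0 there and 3.43 to 21.3 CPM in the others. Camkv, a kinase-like protein of synapses, was at 0 there and 8.95 to 20.5 CPM in the others.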
